A study of Rattus norvegicus with 2 samples.

Results

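Autophagy and mitophagy genes were examined in the spleen of 1 rat that received intraperitoneal cocaine (50 mg/kg daily, 7 days) and of 1 control rat. Both were male Sprague-Dawley rats aged 6 weeks at the start, and the spleens were taken on the day after the last injection. The control rat is titled as not stimulated, although its treatment label repeats that of the cocaine rat, and the study's methods state that control rats received saline. Its title decided its group. Total RNA of each spleen was hybridized to 1 Clariom S rat array, which gives 1 log2 signal for each transcript cluster (a group of short probes that stands for a gene). The genes were chosen by symbol, from a list of 40 genes grouped by their step in autophagy (initiation, conjugation, cargo receptors and regulators), and 36 of them were measured among 15037 named genes. Each of the 36 was represented by 1 transcript cluster. Pik3r4, Atg2b, Atg4b and Calcoco2 were not analysed here.
Autophagy encloses part of the cytoplasm in a double membrane, the autophagosome, and delivers it to the lysosome. Kinase and lipid kinase complexes start the membrane, a pair of ubiquitin-like conjugation systems attach proteins of the LC3 and GABARAP family to it, and cargo receptors bind both that family and the load. Mitophagy is the same process with mitochondria as the load. In mouse, maturing red cells clear their mitochondria in this way, and the spleen of rodents is a site of red cell formation. Red pulp macrophages of the spleen also take up and digest old red cells.
Differences were taken as cocaine minus control on the log2 scale, and -1 is thus a 2-fold lower signal in the cocaine spleen. With 1 array per group there was no replicate, no error and no test, and precision is limited by the number of arrays. A gene was counted as higher or lower where its signals differed at least 2-fold. The 23 background features of the array reached 7.76 on both arrays, which is above the median signal of the transcript clusters (6.97 on both). A signal under 7.76 was therefore treated as not separable from background, which does not show that a gene was not expressed. Of the 36 genes, 29 had both signals above this level, 4 had only the signal in the cocaine spleen under it and 3 had both signals under it.

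Of the 36 autophagy genes, 6 had a signal at least 2-fold lower in the cocaine spleen (16.7%) and 1 was at least 2-fold higher (2.78%). Over all named genes, 4.97% were at least 2-fold lower and 2.28% at least 2-fold higher. Most of the 36 genes had signals above background. Among the 7197 named genes that reached the background level on at least 1 array the share of lower genes was larger, at 8.86%, and that of higher genes was 2.65%. Of the 33 autophagy genes that reached this level on at least 1 array, 6 were lower and 1 was higher. The 6 lower genes were Atg4d, Optn, Wipi1, Foxo3, Wipi2 and Gabarapl2, which come from all 4 steps, and the higher gene was Atg7. The median difference of the 36 genes was -0.32, against 0.04 over all named genes. A difference below 0 was found for 27 of the 36 (75%) and for 46.8% of all named genes. Among genes that reached the background level on at least 1 array, it was found for 26 of 33 autophagy genes (78.8%) and for 50.0% of named genes. The medians there were -0.37 for the autophagy genes and -0.0004 for the named genes.
As deposited, Atg4d, Optn, Wipi1 and Foxo3 had differences between -2.66 and -2.50. Atg4d and Foxo3 had both signals above background, and ranked 127 and 146 from the lowest of the 15037 named genes. The signals of Optn and Wipi1 in the cocaine spleen were under the background level, and with these raised to that level their differences were -2.40 and -1.57, the second of which is close to that of Wipi2 (-1.36). A further 7 genes were between 1.5-fold and 2-fold lower as deposited, and the other genes with a difference below 0 were within 1.5-fold. Of the 7, Ulk1 had both signals under the background level. Nbr1, Pink1, Fundc1 and Atg12 came within 1.5-fold with centring on the 75th percentile (-0.54 to -0.50) and with quantile normalization (-0.55 to -0.48). At 1.5-fold, 13 of the 36 were lower (against 11.7% of all named genes) and 2 higher (against 11.6%), and at 4-fold 4 were lower (against 1.64%) and 0 higher (against 0.0333%). Of the 4, Wipi1 was at least 2.97-fold lower once its signal in the cocaine spleen was raised to the background level, which leaves 3 past 4-fold. The shares at 1.5-fold and 4-fold were taken over all named genes, not among those that reached the background level.

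**Figure D1:**
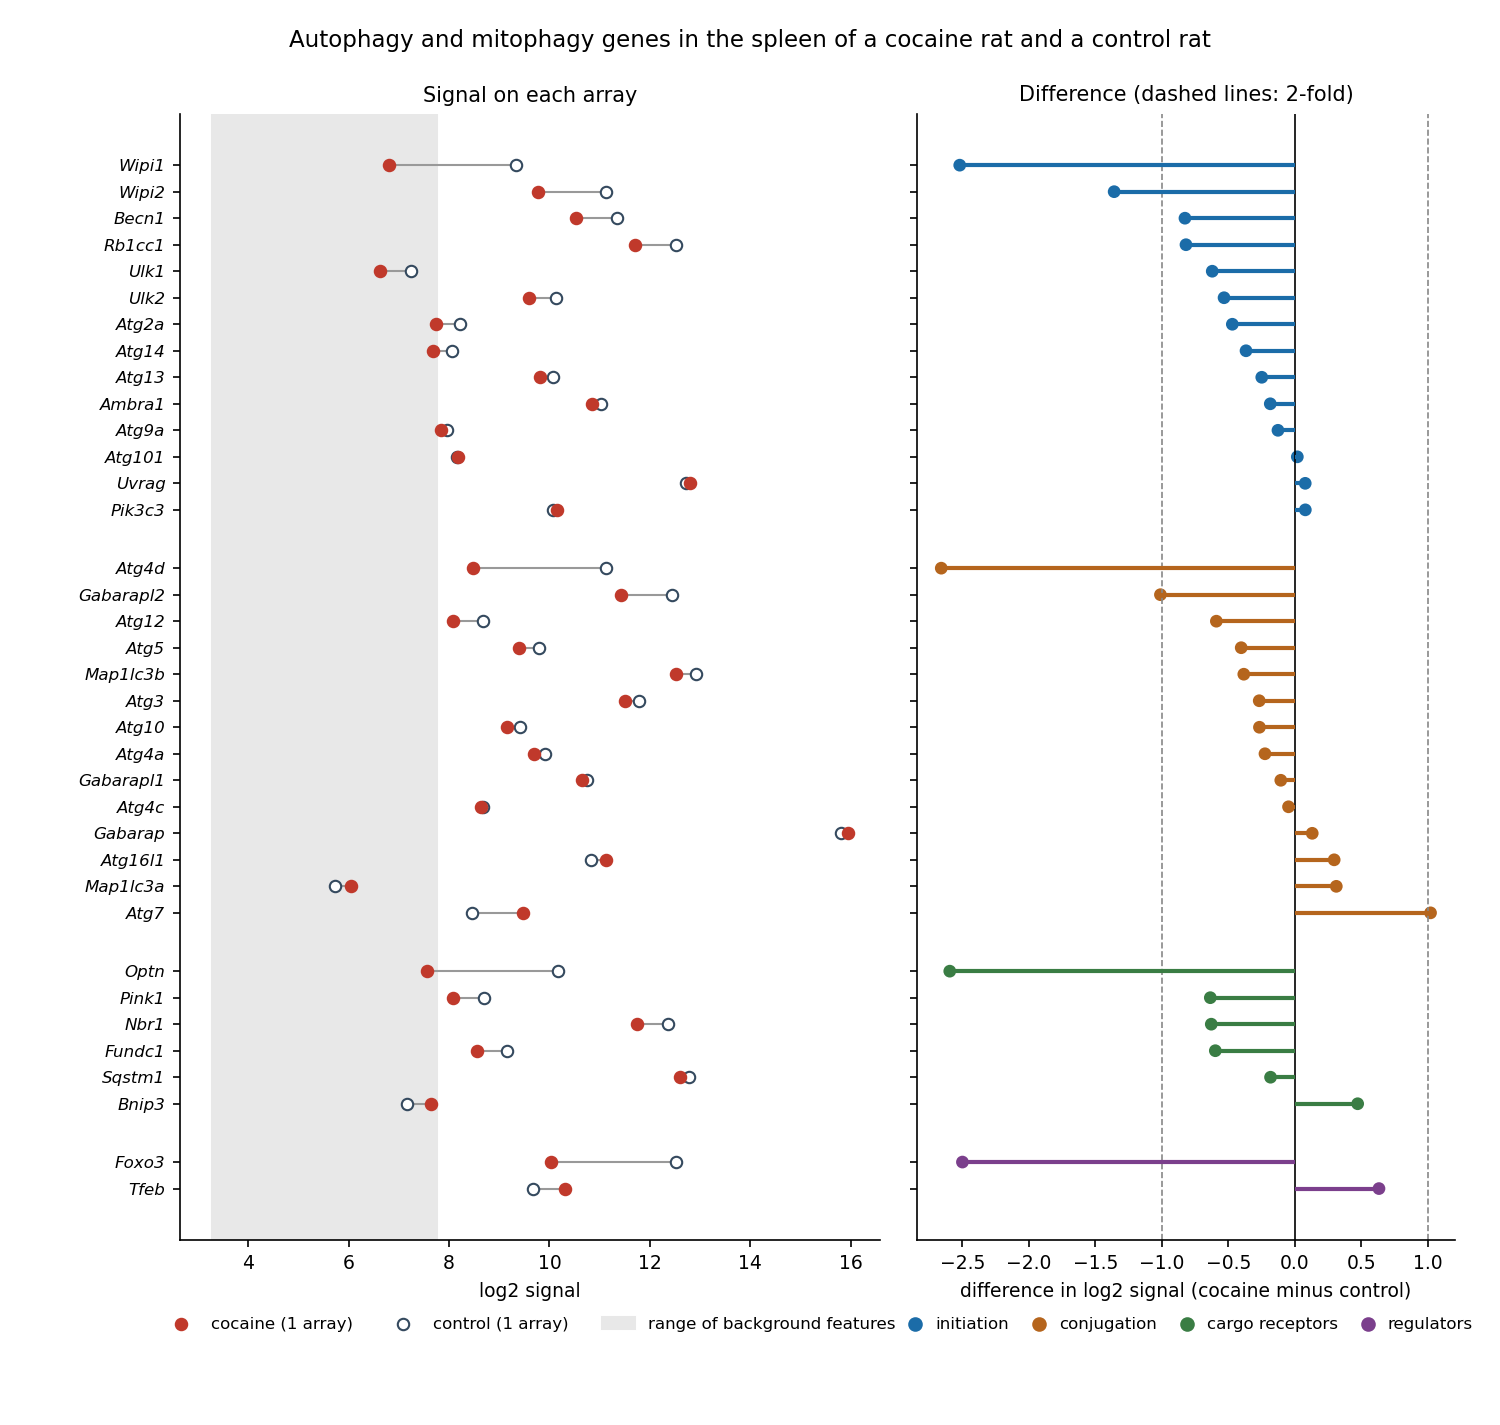
Log2 signal of the 36 measured autophagy genes on the cocaine array (filled) and the control array (open), with the range of the background features shaded, and on the right the difference (cocaine minus control), coloured by step; dashed lines mark 2-fold, and each point is 1 array. Most genes lie within 2-fold, Atg4d (-2.66) and Foxo3 (-2.50) are the lowest with both signals above background, and the signals of Optn and Wipi1 on the cocaine array lie in the shaded range.

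**Figure D2:**
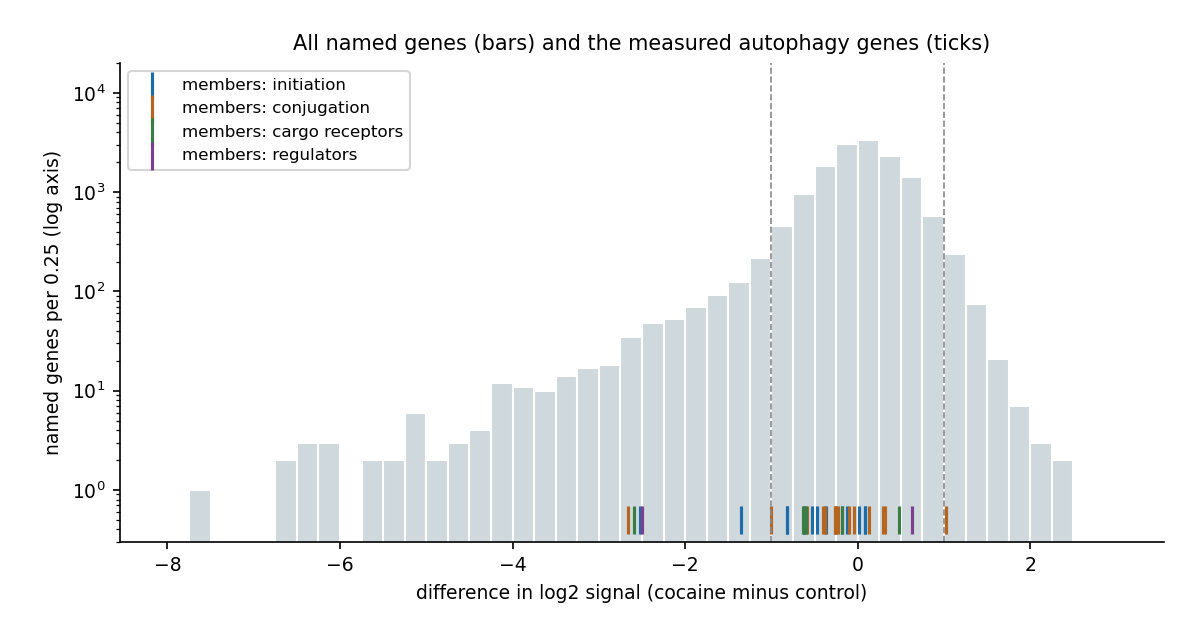
Number of named genes per 0.25 of the difference in log2 signal (bars, log axis) with the autophagy genes as ticks coloured by step; dashed lines mark 2-fold. The autophagy genes reach down to -2.66, inside the lower tail of all named genes, which as deposited reaches -7.67 (Epb42, with a signal under the background level on the cocaine array).

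Markers of red cell precursors were much lower on the same array. All 12 measured genes of 15 in an erythroid list passed 2-fold toward lower signals in the cocaine spleen, with a median difference of -6.12 as deposited. The 8 with both signals above background lay between -6.64 (Hemgn, a nuclear protein of blood-forming cells) and -4.10 (Tfrc, the transferrin receptor). The summed linear signal of all 12 was 19155 in the cocaine spleen and 922980 in the control spleen, a ratio of 48.2 of control over cocaine. The signals of 4 of the 12 lay under the background level in the cocaine spleen and 0 in the control spleen. Raised to that level, Epb42 and Rhag, proteins of the red cell membrane, were at least 73.7-fold and 46.3-fold lower, while the transcription factors Gata1 and Klf1 were at least 3.34-fold and 1.27-fold lower, which leaves 11 of the 12 past 2-fold. Epb42, Rhag, Sptb, Slc4a1, Alas2, Klf1 and Tfrc are also among the red cell genes that the study listed as most decreased on these arrays. Their lower signals here are thus not independent of that list. The part of red cell precursors in the differences of the autophagy genes was not tested. In whole spleen RNA, fewer cells of a type and less RNA per cell cannot be told apart.
Markers of other spleen cells differed less. Of 8 red pulp macrophage markers none was past 2-fold, while 7 had a difference below 0 and 1 had one above it. Their median was -0.36, with summed signals of 96740 in the cocaine spleen and 107096 in the control spleen. Of 7 neutrophil markers 3 were at least 2-fold lower as deposited, with summed signals of 6407 in the cocaine spleen and 15378 in the control spleen. Both signals were under the background level for 4 of the 7, including Camp, 1 of the 3 lower genes. The signal of Mmp8 in the cocaine spleen was also under that level. Only S100a9 and S100a8 had both signals above it. S100a9 had signals of 11.84 in the cocaine spleen and 13.23 in the control spleen (-1.39), and its partner S100a8 had signals of 11.22 in the cocaine spleen and 12.34 in the control spleen (-1.12). B cell (3 genes) and T cell (6 genes) markers had medians of 0.41 and 0.19 and none past 2-fold. Of the remaining marker lists, 1 of 6 NK cell genes and 2 of 7 smooth muscle and stroma genes were at least 2-fold higher, 1 of 3 megakaryocyte and platelet genes was at least 2-fold lower, and 0 of 6 endothelial genes passed 2-fold. Cd79b, the B cell receptor chain, had signals of 15.72 in the cocaine spleen and 15.08 in the control spleen, and C1qa, a complement protein of macrophages, had signals of 13.32 in the cocaine spleen and 14.07 in the control spleen.

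Initiation begins with the ULK1 complex, a protein kinase that responds to nutrient and energy supply. None of its 5 measured genes was past 2-fold. Rb1cc1, the large scaffold of the complex also known as FIP200, had signals of 11.70 in the cocaine spleen and 12.52 in the control spleen, a difference of -0.82. Ulk2, a kinase subunit, had signals of 9.60 in the cocaine spleen and 10.13 in the control spleen (-0.53). The adaptor Atg13 was closer, with a difference of -0.25, and its partner Atg101 was nearly level at 0.02, a sign that turned to -0.01 with a loess correction for signal. Ulk1, the other kinase, had signals of 6.62 in the cocaine spleen and 7.24 in the control spleen, both under the background level, so no direction is read from it.
The class III phosphatidylinositol 3-kinase complex makes the lipid phosphatidylinositol 3-phosphate on the growing membrane. Its 5 measured genes were within 2-fold. Becn1, the beclin 1 subunit, had the lowest difference of them, -0.83, with signals of 10.53 in the cocaine spleen and 11.35 in the control spleen. The catalytic subunit Pik3c3 was nearly level, with signals of 10.14 in the cocaine spleen and 10.06 in the control spleen (0.08). Uvrag, which joins the form of the complex found on endosomes, had a difference of 0.08, and Ambra1, a regulator of beclin 1, one of -0.18. Atg14, which directs the complex to autophagy, had signals of 7.69 and 8.06 in the cocaine and control spleen (-0.37), the lower of them under the background level.
The lipid is read by the WIPI proteins, and both measured WIPI genes of the list were lower. Wipi1 had a signal of 6.81 in the cocaine spleen and 9.33 in the control spleen, a difference of -2.52. Since the signal in the cocaine spleen lay under the background level, raising it to that level leaves Wipi1 at least 2.97-fold lower. Wipi2, which brings the LC3 conjugation enzymes to the membrane, had signals of 9.77 in the cocaine spleen and 11.13 in the control spleen (-1.36, 2.56-fold lower). The genes that supply membrane differed less. Atg9a, a scramblase in small vesicles, had a difference of -0.13, and Atg2a, which carries lipids into the membrane, one of -0.47, with a signal in the cocaine spleen (7.74) just under the background level. Over the 14 measured initiation genes the median was -0.42, with 2 at least 2-fold lower and none at least 2-fold higher.

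Conjugation held both the lowest and the highest difference among the 36 genes. Atg7, the E1-like enzyme that activates both ubiquitin-like systems, had a signal of 9.47 in the cocaine spleen and 8.45 in the control spleen, a difference of 1.02 (2.03-fold higher). It stayed past 2-fold under each of 4 scalings of the arrays, with differences from 1.00 to 1.12. The E2-like enzymes that act after it did not share this direction, with differences of -0.27 for Atg3 and -0.27 for Atg10. Atg12 and Atg5, which are joined to each other, had differences of -0.59 and -0.40. Atg16l1, which binds this pair and places it on the membrane, had signals of 11.13 in the cocaine spleen and 10.83 in the control spleen (0.30). The 6 genes of the conjugation enzymes thus had 1 gene past 2-fold, Atg7.
The ATG4 proteases trim LC3 and GABARAP proteins before conjugation and release them from the membrane afterwards. Atg4d had a signal of 8.47 in the cocaine spleen and 11.13 in the control spleen, a difference of -2.66 (6.31-fold lower), the lowest of the 36 genes and the 127th lowest of all named genes. Both signals were above background. The related proteases were close to level, with signals for Atg4a of 9.68 in the cocaine spleen and 9.91 in the control spleen (-0.22) and for Atg4c of 8.63 in the cocaine spleen and 8.68 in the control spleen (-0.05). The sign of Atg4c turned with centring on the 75th percentile and with quantile normalization (0.05 and 0.07).
The LC3 and GABARAP genes encode the small proteins that are attached to the membrane. Gabarapl2, also called GATE-16, had signals of 11.42 in the cocaine spleen and 12.43 in the control spleen, a difference of -1.01, which was within 2-fold with centring on the 75th percentile (-0.92) and with quantile normalization (-0.91). Map1lc3b, which encodes the LC3 protein most used as a marker of autophagosomes, had signals of 12.53 in the cocaine spleen and 12.91 in the control spleen (-0.38). Gabarapl1 (-0.10) and Gabarap (0.13) were nearly level, and the sign of Gabarap turned with the loess correction (-0.07). Both signals of Map1lc3a (6.05 in the cocaine spleen and 5.73 in the control spleen) were under the background level. Over the 14 conjugation genes the median was -0.24.

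Cargo receptors had a median of -0.61 over 6 genes, with 1 at least 2-fold lower. Optn encodes optineurin, a receptor that binds ubiquitin on damaged mitochondria and bacteria. Its signal was 7.57 in the cocaine spleen and 10.16 in the control spleen, a difference of -2.59. With the signal in the cocaine spleen raised to the background level, Optn was at least 5.29-fold lower. The other receptors for ubiquitin were within 2-fold. Sqstm1, which encodes p62, had signals of 12.60 in the cocaine spleen and 12.78 in the control spleen (-0.18), and Nbr1, a relative of p62, had signals of 11.74 in the cocaine spleen and 12.36 in the control spleen (-0.63).
Of the 3 other mitophagy genes of the list, Pink1, Fundc1 and Bnip3, none was past 2-fold. Pink1, the kinase that marks damaged mitochondria for removal, had signals of 8.07 in the cocaine spleen and 8.71 in the control spleen (-0.63). Fundc1, a receptor in the outer mitochondrial membrane, had signals of 8.56 in the cocaine spleen and 9.16 in the control spleen (-0.60). For Bnip3, another receptor of this membrane, both signals (7.63 in the cocaine spleen and 7.16 in the control spleen) were under the background level.
The regulators differed in opposite directions. Foxo3, a forkhead transcription factor that activates autophagy genes and in mouse is needed for red cell maturation, had signals of 10.02 in the cocaine spleen and 12.52 in the control spleen, a difference of -2.50 (5.65-fold lower). Tfeb, the activator of lysosomal and autophagy genes, had signals of 10.31 in the cocaine spleen and 9.67 in the control spleen, a difference of 0.63, which is above 1.5-fold but within 2-fold.

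The sequences upstream of the lower genes are shown because these genes had lower signals on the same array. Of the 36 genes, 30 had an entry in the promoter sequences of RefSeq (build GRCr8), and among the lower genes these were Atg4d, Optn, Wipi1, Wipi2 and Gabarapl2. The 250 bases before the annotated start of each are given from 5′ to 3′, in lower case with matches to a GATA motif in capitals. They lie at chr8:28083686-28083935 (plus strand), chr17:78118619-78118868 (plus strand), chr10:95079294-95079543 (minus strand), chr12:17053307-17053556 (minus strand) and chr19:56819576-56819825 (plus strand).
Atg4d: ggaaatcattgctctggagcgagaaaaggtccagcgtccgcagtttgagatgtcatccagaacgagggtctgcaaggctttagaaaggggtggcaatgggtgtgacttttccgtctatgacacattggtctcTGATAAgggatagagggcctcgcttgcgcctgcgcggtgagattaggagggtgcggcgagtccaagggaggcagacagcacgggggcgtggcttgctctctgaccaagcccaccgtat
Optn: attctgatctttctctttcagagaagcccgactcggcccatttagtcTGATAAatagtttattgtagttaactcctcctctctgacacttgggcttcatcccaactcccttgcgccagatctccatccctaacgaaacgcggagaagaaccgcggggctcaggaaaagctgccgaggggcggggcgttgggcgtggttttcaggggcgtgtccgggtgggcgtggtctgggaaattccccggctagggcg
Wipi1: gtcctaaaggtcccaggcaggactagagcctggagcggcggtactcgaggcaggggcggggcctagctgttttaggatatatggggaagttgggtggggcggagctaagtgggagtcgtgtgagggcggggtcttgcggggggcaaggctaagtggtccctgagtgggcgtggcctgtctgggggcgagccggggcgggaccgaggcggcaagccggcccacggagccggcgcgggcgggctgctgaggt
Wipi2: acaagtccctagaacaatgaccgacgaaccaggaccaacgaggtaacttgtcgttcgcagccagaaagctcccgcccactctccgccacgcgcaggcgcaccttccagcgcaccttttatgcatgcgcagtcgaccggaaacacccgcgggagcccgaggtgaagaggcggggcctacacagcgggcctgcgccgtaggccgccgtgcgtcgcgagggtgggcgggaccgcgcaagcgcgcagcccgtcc
Gabarapl2: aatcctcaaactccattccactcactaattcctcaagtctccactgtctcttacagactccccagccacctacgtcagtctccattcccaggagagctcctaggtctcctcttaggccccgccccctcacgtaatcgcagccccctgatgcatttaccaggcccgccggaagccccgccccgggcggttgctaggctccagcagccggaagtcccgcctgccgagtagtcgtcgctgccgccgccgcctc
The motifs searched, on both strands, were for GATA factors AGATAA together with TGATAA, as well as AGATAG together with TGATAG, for Tfeb and its relatives the core CACGTG and for forkhead factors TGTTTA, and these letters were chosen after the values and some of the sequences had been seen. A forkhead word can share letters with a GATA word, but no window printed here held both. Atg4d held TGATAA from 118 to 113 bases before the start, and Optn held TGATAA from 203 to 198 bases before it. Neither the core CACGTG nor TGTTTA was in these 5 windows. A GATA word was in 7 of the 30 windows of autophagy genes (23.3%), and in 22.7% of 12435 windows of named genes. CACGTG was in 4 of the 30 (13.3%, against 7.01%), those of Pink1, Bnip3, Atg5 and Atg3, and TGTTTA in 2 of the 30 (6.67%, against 9.86%). The share with a GATA word was thus close to that of all named genes. A match of letters is a description of these windows and does not show that a factor binds there.

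Related genes were set side by side, a grouping made after the values were seen. In the ATG4 family the difference of Atg4d lay 2.61 below that of Atg4c. Among the WIPI genes, Wdr45, which encodes WIPI4 and was on a list of further autophagy factors, had signals of 10.30 in the cocaine spleen and 12.50 in the control spleen (-2.20), so that 3 of 4 genes were at least 2-fold lower. The fourth, Wdr45b, which encodes WIPI3, had signals of 11.49 in the cocaine spleen and 11.26 in the control spleen (0.24). Foxo1 and Foxo4, relatives of Foxo3, had differences of -0.51 and -0.85. Relatives of Tfeb lay between -0.33 (Tfe3) and 0.11 (Tfec), and both signals of Tfe3 were under the background level.
In the BNIP3 family only Bnip3l had signals above background. Bnip3l, also called Nix, is the receptor that in mouse removes mitochondria from reticulocytes. Its signal was 15.17 in the cocaine spleen and 17.57 in the control spleen, a difference of -2.40 (5.28-fold lower), while Bnip3 lay within background. Over the 4 scalings the difference of Bnip3l lay between -2.62 (loess correction) and -2.31 (centring on the 75th percentile).

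**Figure D3:**
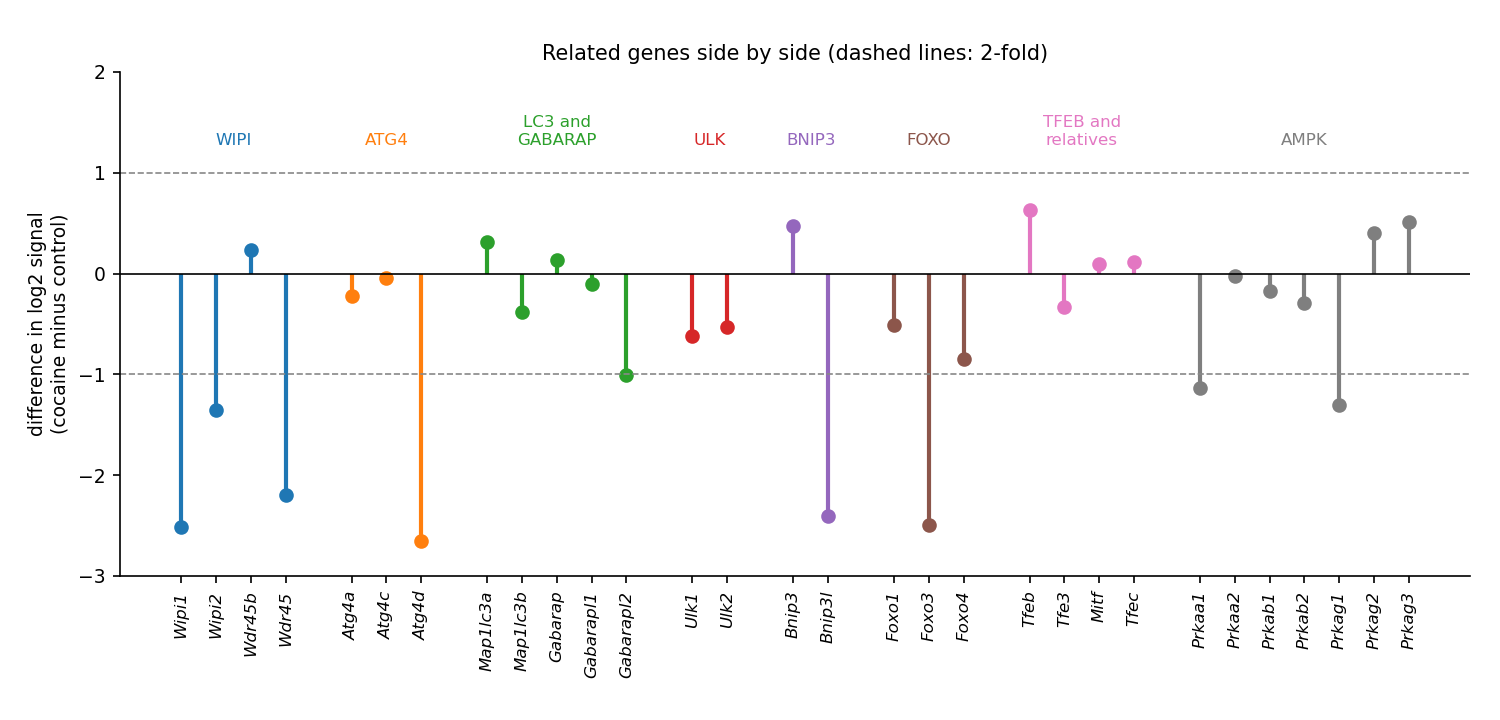
Difference in log2 signal (cocaine minus control, 1 array each) of related genes, grouped and coloured by family; dashed lines mark 2-fold, and both signals of Map1lc3a, Ulk1, Bnip3, Tfe3, Mitf, Prkab2 and Prkag3 were under the background level. Atg4d (-2.66) and Foxo3 (-2.50) lie below their measured relatives, 3 of 4 WIPI genes are past 2-fold, and Bnip3l (-2.40) has no relative above background.

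Genes that act before and after these steps were followed in 8 further lists. In these, 110 of 128 genes were measured, and 10 were at least 2-fold lower (9.09%, against 4.97% of all named genes) and 1 at least 2-fold higher (0.909%, against 2.28%). Among the named genes that reached the background level on at least 1 array these shares were 8.86% and 2.65%, so the share of lower genes in the further lists was close to that background. Their median difference was -0.08. Besides Bnip3l and Wdr45, the lower genes belonged to energy sensing and to the lysosome.
AMPK is a kinase that senses low energy and activates the ULK1 complex. Of 10 genes of its subunits and upstream kinases, 2 were at least 2-fold lower. Prkag1, a nucleotide-binding subunit, had signals of 11.02 in the cocaine spleen and 12.33 in the control spleen (-1.31), and Prkaa1, a catalytic subunit, had signals of 11.10 in the cocaine spleen and 12.24 in the control spleen (-1.14). The other catalytic subunit, Prkaa2, was nearly level (-0.03). In the list of mTORC1, the kinase complex that restrains autophagy, 1 of 22 genes was past 2-fold. This was Fnip2, a partner of folliculin, with signals of 8.40 in the cocaine spleen and 9.66 in the control spleen (-1.26). Mtor itself had a difference of 0.17. Ddit4, an inhibitor of mTORC1 that glucocorticoids and low oxygen induce, had signals of 13.45 in the cocaine spleen and 12.72 in the control spleen (0.72).
Lysosomal genes differed among themselves. Of 22 genes of the lysosomal membrane and hydrolases 3 were at least 2-fold lower, and the median was -0.08. Ctsb, the protease cathepsin B, had signals of 14.33 in the cocaine spleen and 16.12 in the control spleen (-1.80), Ctsd, cathepsin D, had signals of 10.82 and 12.42 in the cocaine and control spleen (-1.60), and Gaa, the acid alpha-glucosidase that breaks down glycogen, had signals of 8.42 and 9.80 in the cocaine and control spleen (-1.38). The other genes of this list were within 2-fold, in both directions. Of all 22 genes, 12 had a difference below 0 and 10 had one above it. Tpp1 (-0.89) and Hexa (-0.85) had lower signals in the cocaine spleen, while Lipa and Ctss had higher signals. Lipa, the acid lipase, had signals of 13.60 in the cocaine spleen and 12.98 in the control spleen (0.62), and Ctss, cathepsin S, had signals of 13.95 and 13.35 in the cocaine and control spleen (0.60). The main proteins of the lysosomal membrane were close to level, with differences of -0.27 for Lamp1 and 0.12 for Lamp2. Of 17 genes of the vacuolar ATPase, the proton pump of the lysosome, 2 were at least 2-fold lower, Atp6v0a1 (-1.62) and Atp6v0b (-1.30). The median of the list was -0.06.
Fusion of autophagosomes with lysosomes had the single further gene that was higher. Vps18, a core subunit of the tethering complexes HOPS and CORVET, had signals of 8.84 in the cocaine spleen and 7.55 in the control spleen, a difference of 1.29. The signal in the control spleen was under the background level, which leaves Vps18 at least 2.12-fold higher. Vps33a, another subunit of these complexes, had signals of 7.74 in the cocaine spleen and 8.71 in the control spleen (-0.97), the lower of them just under the background level. Stx17, the fusion protein of the autophagosome, had a difference of 0.13.

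**Figure D4:**
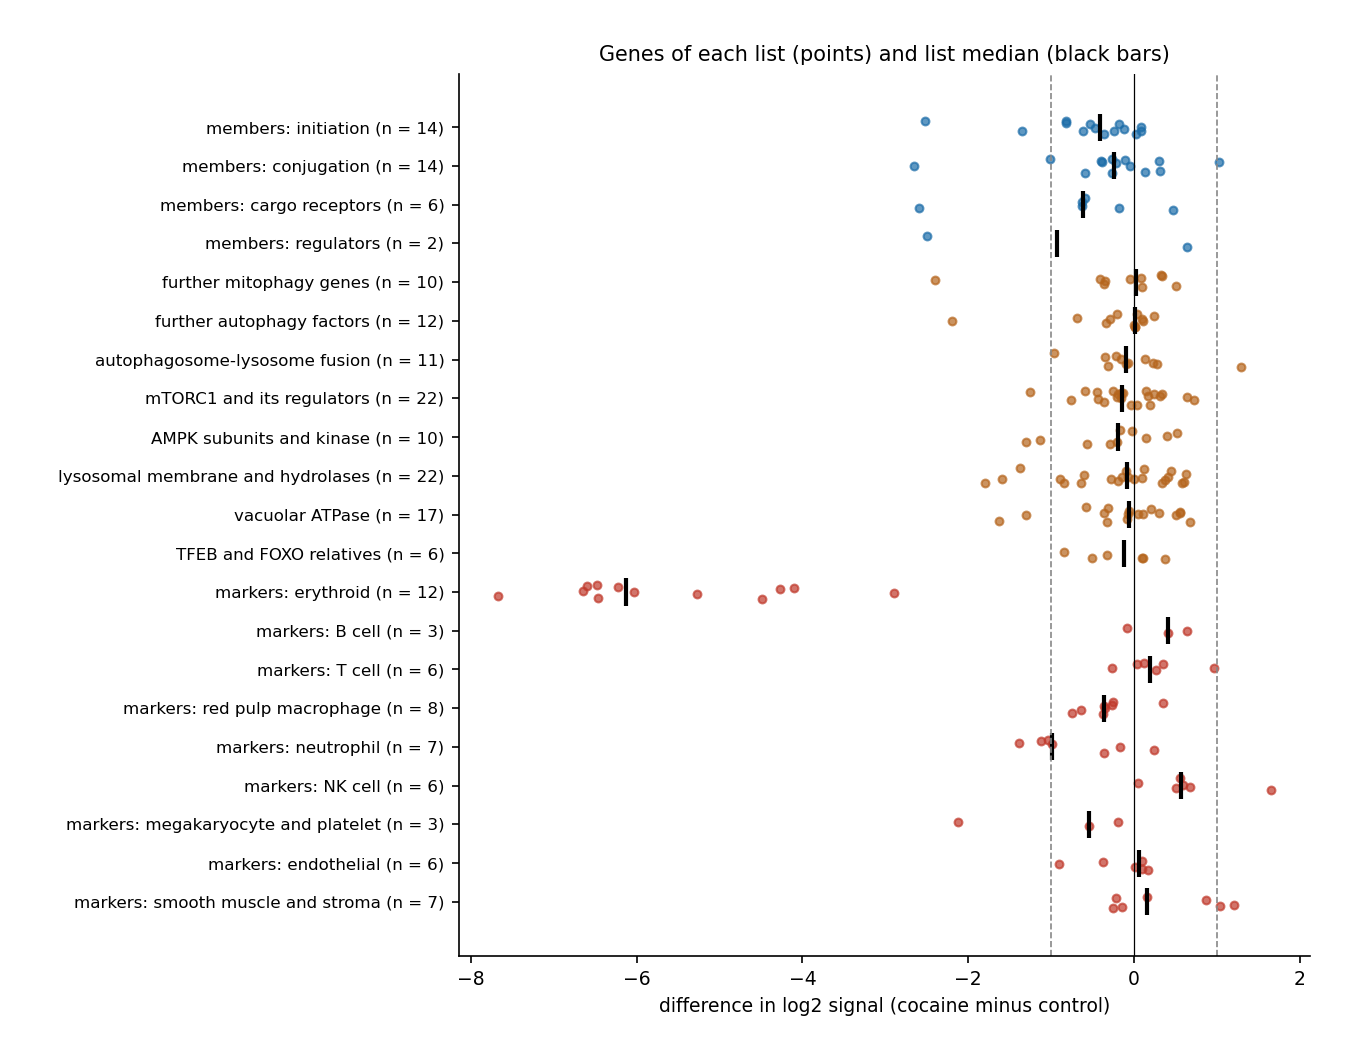
Difference in log2 signal (cocaine minus control, 1 array each) of every measured gene of the autophagy steps (blue), the further autophagy and lysosome lists (brown) and the cell type markers (red); points are genes, spread vertically for legibility, black bars are list medians and dashed lines mark 2-fold. The erythroid markers (median -6.12) lie below all other lists, and the autophagy steps have medians from -0.93 to -0.24. The median of -0.93 is the midpoint of only 2 regulators, Foxo3 (-2.50) and Tfeb (0.63).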

How the data were processed

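The authors purified total RNA from spleen with TRIzol and RNeasy columns, digested DNA with DNase I and hybridized it to Clariom S rat arrays. Log2 signals, 1 per feature, were deposited. The methods of background correction, summarisation and normalization were not given in the sources used here, and other choices there could change the differences of genes with low signals. The base of the logarithm was checked against ratios stated for red cell genes. Of 24834 features, 23188 were transcript clusters, and 15049 of these had 1 gene symbol from the platform annotation, standing for 15037 genes. Where a symbol had several clusters (10 symbols, none an autophagy gene here), the one with the highest mean signal was used. All 36 genes matched the same symbol in RefSeq by Entrez identifier.
The log2 signal of the control array was subtracted from that of the cocaine array, and differences of at least 1 in either direction were counted, after the study's 2-fold threshold. With 1 array per group no test or error was possible. Every measured gene of the list was named, and of the further and marker lists up to 4 genes with the largest difference, with Bnip3l, Lamp1 and Lamp2. Genes named beyond this (Gata1, Klf1, Tfrc, Sptb, Slc4a1, Alas2, Hexa, Lipa, Ctss, Wdr45b, Tfec, Prkaa2, Mtor, Stx17 and further relatives in the plot of families) were picked with their values known. The gene list and the further lists were chosen with earlier results of these data known. Alternatives were 4 scalings (median and 75th percentile centring, quantile normalization, loess with a span of 0.3), filters and floors on low signals, other thresholds, the mean over clusters and a margin of 0.5 from the highest signal. The procedure was tested on simulated data. Python 3.11.15, numpy 2.4.6, pandas 2.3.3, statsmodels 0.14.6 and matplotlib 3.10.9 were used.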

Additional observations from a re-analysis of the deposited data

How the results depend on the processing

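With 1 array per group no replicate could be left out. No paired analysis was possible because each group held 1 array. Of the 36 autophagy genes, 1 was at least 2-fold higher under each of the 4 scalings, 2 filters, 2 floors, the mean over clusters and the exclusion of genes near the highest signal, which removed none. Under the same alternatives 5 or 6 were at least 2-fold lower, the lower count coming from Gabarapl2 with 75th percentile centring and quantile normalization. At a threshold of 1.5-fold, 2 were higher and 13 lower. The 13 held Ulk1, whose signals were both under the background level. They also held Nbr1, Pink1, Fundc1 and Atg12, which were within 1.5-fold with 75th percentile centring and quantile normalization. At 4-fold 0 were higher and 4 lower. With signals under the background level also raised to it, a combination chosen after seeing the data, 3 were at least 4-fold lower. The same floor left 11 of 12 erythroid, 2 of 7 neutrophil and 10 of 110 further genes at least 2-fold lower. The median difference of the 36 genes stayed below 0, between -0.37 with either filter and -0.22 with 75th percentile centring. That centring raised the median of all named genes by 0.09, and loess lowered it by 0.06. Differences of genes under or near the background level are limited by signal rather than by fold. With 1 array per group, differences of any size cannot be told from variation between animals or arrays.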
